A study of Mus musculus with 8 samples.

Results

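Crypt base stem cell markers are the genes whose transcripts set the intestinal stem cells (ISCs) at the bottom of the small intestinal crypt apart from the other cells of the epithelium. The 10 followed here were found by their symbols: Lgr5, Olfm4, Ascl2, Smoc2, Rgmb, Slc12a2, Tnfrsf19, Aqp4, Cdca7 and Sox9. All 10 were present among the 25239 genes of the deposited count table, and all 10 were among the 15446 genes that could be tested. They were measured by bulk RNA sequencing of epithelial cells (IECs, sorted as EpCAM+ cells free of the leukocyte, endothelial and erythroid surface markers) from crypts of the proximal small intestine. The comparison addressed what the lack of CD1d, and with it of NKT cells, does to the epithelial transcriptome.

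The 4 CD1d-KO samples (genotype CD1d1/2 KO, a knockout carried by the whole animal and not by the epithelium alone) were set against the 4 WT samples (genotype C57BL/6Jax). The labels list no treatment for either genotype. Each sample held 150000 sorted cells from a mouse aged 7 to 10 weeks, and the samples came from 2 experiments. Which sample came from which experiment, and the sex of each mouse, are not in the labels.

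The libraries held 23610266 to 31629435 counts. Cd1d1, the targeted gene, had 8, 3, 5 and 0 raw counts in CD1d-KO samples 1 to 4 and 81, 70, 94 and 50 in WT samples 1 to 4. Epcam and Vil1, which define the epithelium, had 52220 to 58700 and 36310 to 47450 normalised counts, and the genes of stroma and endothelium summed to 19 to 58. Y-linked counts of 10 or more were present in CD1d-KO 1 and CD1d-KO 2 only (Ddx3y at 1722 and 2053 normalised counts, 0 to 1.05 in the others), although the study's methods describe matched sexes. No WT sample reached that, so the genotypes could be compared at like sex only among samples without Y-linked counts. Genes of the stomach and Brunner's glands summed to 16550 normalised counts in WT 3 and 7313 in WT 4, and to 309 to 2078 in the other 6 samples. Each marker is therefore also given without CD1d-KO 1 and 2, called the Y-linked samples, which leaves 2 CD1d-KO and 4 WT samples, and genes of the other lists are where their call changed.

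Stem cells at the crypt base sit between Paneth cells and divide to feed the transit-amplifying compartment, from which absorptive and secretory cells arise. They depend on WNT signals amplified by R-spondins, on NOTCH signals from neighbouring Paneth cells, and on protection from BMP signals that rise towards the villus. The markers cover several of these roles: Lgr5 is an R-spondin receptor, Rgmb a BMP co-receptor, Tnfrsf19 (TROY) a TNF receptor family member, Ascl2 and Sox9 are transcription factors downstream of WNT, Olfm4 and Smoc2 are secreted, and Slc12a2 (NKCC1) and Aqp4 carry ions and water.

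None of the 10 markers was up- or downregulated in CD1d-KO IECs at an adjusted p under 0.05 (DESeq2), where 4.03% of all tested genes were called, and none by edgeR. Normalised counts of the genotypes overlapped for all 10, and did not overlap for 9.61% of tested genes. Log2 fold changes of CD1d-KO over WT ran from -0.34 for Tnfrsf19 to 0.29 for Slc12a2, were above 0 for 9 markers (50.3% of all tested genes) and had a median of 0.14, beside 0.001 over all tested genes. Slc12a2, Tnfrsf19 and Aqp4 had an unadjusted p under 0.05, as 15.3% of tested genes did. Much of the variation lay between mice of the same genotype: CD1d-KO 1, CD1d-KO 2 and WT 1 stood high for nearly every marker.

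**Figure D1:**
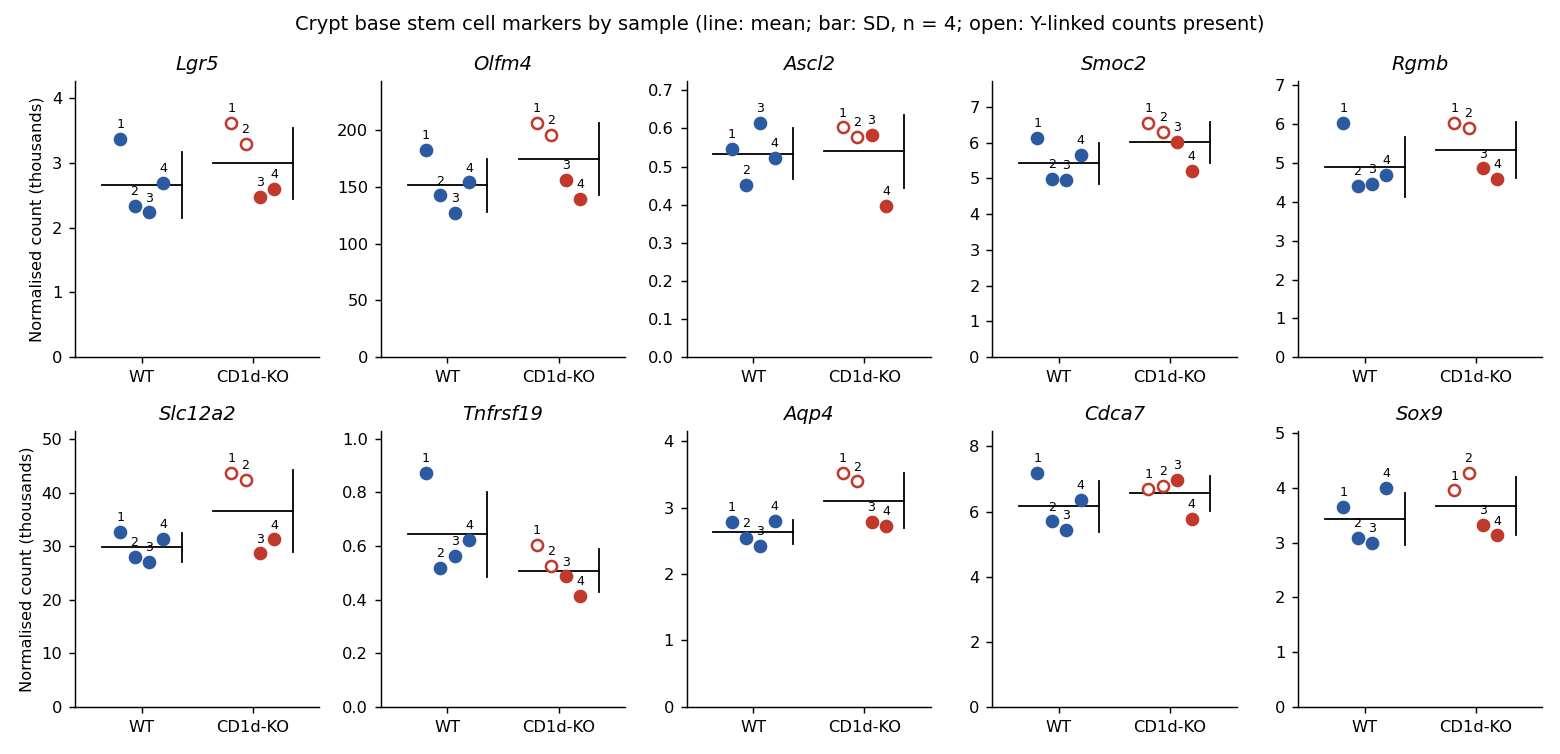
Normalised counts (axes from 0, in the units printed on them) of the 10 markers in each WT (blue) and CD1d-KO (red) sample, numbered by replicate, with the mean as a line and the SD as a bar (n = 4). The genotypes overlap in every panel, and the open symbols, CD1d-KO samples with Y-linked counts, lie above the other CD1d-KO samples for all markers but Ascl2 and Cdca7.

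The markers spanned a wide range of abundance. As FPKM, counts scaled to exon length and library size, Olfm4 was the highest with a mean of 2063 over the 8 samples, followed by Slc12a2 (177.1), Cdca7 (93.9), Smoc2 (70.4), Sox9 (29.8), Rgmb (28.8), Lgr5 (20.9), Aqp4 (16.7), Ascl2 (11.6) and Tnfrsf19 (4.20). Olfm4 alone took 0.441 to 0.729% of a library's counts. Sox9 and Rgmb did not differ beyond their spread, Sox9 being higher in 6 of 8 samples. Each of the other 8 neighbouring pairs kept its order in 8 of 8 samples, although the ranges over samples overlapped for Cdca7 and Smoc2, Rgmb and Lgr5, and Lgr5 and Aqp4. The lowest raw count of any marker in any library was 414, for Ascl2, where counting error alone is 4.92% and the coefficient of variation between mice was 12.5% in WT and 17.7% in CD1d-KO.

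Promoters of 5 markers (Olfm4, Ascl2, Tnfrsf19, Rgmb and Cdca7, 8 windows) were read from RefSeq (GRCm38.p6) as the 250 bases before each start. Shown are those of the most abundant marker (Olfm4), of the least abundant and the only one with a negative fold change (Tnfrsf19, which has a start at the gene's edge and another inside it), and of the marker with the smallest relative spread among CD1d-KO samples (Cdca7). Capitals mark matches on either strand to a TCF/LEF motif (ATCAAAG, the end point of WNT signalling), an E-box (CAGCTG, a bHLH motif), an RBPJ motif (TGGGAA, the end point of NOTCH signalling) and a GAS motif (TTCNNNGAA, bound by STAT dimers).
Olfm4, chr14:80000052-80000301, plus strand: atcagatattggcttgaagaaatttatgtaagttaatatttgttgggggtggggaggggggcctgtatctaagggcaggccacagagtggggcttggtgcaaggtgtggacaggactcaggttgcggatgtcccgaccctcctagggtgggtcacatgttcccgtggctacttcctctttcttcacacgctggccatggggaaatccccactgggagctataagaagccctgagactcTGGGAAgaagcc
Cdca7, chr2:72475969-72476218, plus strand: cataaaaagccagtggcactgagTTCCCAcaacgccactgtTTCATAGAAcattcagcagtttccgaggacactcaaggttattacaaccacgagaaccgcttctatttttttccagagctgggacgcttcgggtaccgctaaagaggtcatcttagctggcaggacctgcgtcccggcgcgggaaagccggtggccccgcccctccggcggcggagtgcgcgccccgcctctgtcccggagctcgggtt
Tnfrsf19, outer start, chr14:61046856-61047105, minus strand: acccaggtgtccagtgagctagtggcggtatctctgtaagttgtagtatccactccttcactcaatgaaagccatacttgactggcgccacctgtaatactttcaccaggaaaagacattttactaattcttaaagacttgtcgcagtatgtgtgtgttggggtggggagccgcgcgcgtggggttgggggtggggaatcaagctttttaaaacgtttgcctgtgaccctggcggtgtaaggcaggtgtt
Tnfrsf19, inner start, chr14:61037988-61038237, minus strand: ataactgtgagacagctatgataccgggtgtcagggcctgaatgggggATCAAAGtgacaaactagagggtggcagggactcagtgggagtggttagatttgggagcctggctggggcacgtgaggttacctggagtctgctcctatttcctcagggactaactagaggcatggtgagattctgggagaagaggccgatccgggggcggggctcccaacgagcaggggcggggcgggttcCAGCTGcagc
The RBPJ letters stood 12 bases before the start of Olfm4 and 227 bases before that of Cdca7 (there on the opposite strand), and 21.6% of the 32851 windows of this length hold them. Cdca7 also held the GAS letters 209 bases before its start (7.02% of windows). At the inner start of Tnfrsf19 the TCF/LEF letters stood 202 bases before the start (3.21% of windows) and the E-box 10 bases before it (13% of windows). The outer Tnfrsf19 window and the windows of Ascl2 and Rgmb held none of these letters, which says nothing of the factors. The motifs do not overlap one another in these windows.

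Among the receptors, Lgr5 (chromosome 10, 115450314 to 115587780, minus strand, mm10 as in the deposited annotation) amplifies WNT signals upon binding R-spondins and is the defining marker of cycling ISCs. CD1d-KO samples 1 to 4 held 3612, 3296, 2472 and 2593 normalised counts of it, beside 3373, 2339, 2234 and 2690 in WT samples 1 to 4. CD1d-KO 1, WT 1 and CD1d-KO 2 were the highest 3 samples, and CD1d-KO 3 and 4 lay within the WT range. CD1d-KO samples averaged 2993 ± 549.7 (SD, n = 4) against a WT average of 2659 ± 514.6. Lgr5 thus had a log2 fold change of 0.17 ± 0.15 (SE, with a 95% interval of -0.11 to 0.46, adjusted p = 0.659). The interval leaves room for a level from 0.924-fold to 1.37-fold that of WT. Without the Y-linked samples the sign turned, to -0.07 (-0.35 to 0.21).

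Rgmb (chromosome 17, 15804661 to 15831246, minus strand) encodes a membrane-anchored BMP co-receptor. It was measured at 6021, 5902, 4861 and 4597 normalised counts in CD1d-KO and 6025, 4400, 4463 and 4691 in WT. WT 1 lay with the Y-linked samples, and the remaining 5 samples lay close together. The log2 fold change was 0.13 ± 0.12 (-0.11 to 0.36, adjusted p = 0.706), and -0.05 without the Y-linked samples.

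Tnfrsf19 (chromosome 14, 60963834 to 61046855, minus strand), which encodes the WNT-induced receptor TROY, was the only marker with a lower mean in CD1d-KO. CD1d-KO samples held 605, 525, 486 and 414 normalised counts, beside 872, 518, 564 and 621 in WT. All 4 CD1d-KO samples lay under the WT mean of 643.7 ± 157.8, WT 1 was the highest sample and CD1d-KO 4 the lowest, and WT 2 and WT 3 fell among the CD1d-KO samples. The log2 fold change was -0.34 ± 0.16 (-0.67 to -0.02) with an unadjusted p of 0.0371, an adjusted p of 0.283 and an exact permutation p of 0.171 over the 70 assignments of the samples. Without the Y-linked samples it was -0.52 (-0.88 to -0.15, adjusted p = 0.133), and without WT 1, the sample that lifts the WT mean most, it was -0.16. Tnfrsf19 is also expressed outside the epithelium. The genes of stroma and endothelium summed to 58 normalised counts in WT 1 and to 19 to 37 in the other samples. The most abundant of them was Pecam1, an endothelial gene, at 29.5 in WT 1, 24.1 in CD1d-KO 1 and 6.3 to 19.5 in the others. Pdgfra, Dcn and Lum, picked from them as examples, were at 0 to 8.7. Pdgfra (7.9) and Lum (2) were highest in WT 1, and Dcn (8.7) in WT 3. The part of these genes in the Tnfrsf19 values was not tested.

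Of the transcription factors, Ascl2 (chromosome 7, 142966822 to 142969264, minus strand), a bHLH factor that sets the ISC program, was measured at 603, 577, 584 and 397 normalised counts in CD1d-KO and 546, 452, 614 and 522 in WT. CD1d-KO 4 was the lowest of the 8 samples and WT 3 the highest, an order unlike that of the other markers. The means of 540.2 ± 95.8 and 533.3 ± 66.9 gave a log2 fold change of 0.02 ± 0.14 (-0.26 to 0.30, adjusted p = 0.980), and -0.12 (-0.45 to 0.21) without the Y-linked samples.

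Sox9 (chromosome 11, 112782210 to 112787757, plus strand), an HMG-box factor of the crypt that is also required for Paneth cells, was measured at 3954, 4275, 3322 and 3133 in CD1d-KO against 3652, 3086, 2993 and 3995 in WT. The samples of each genotype fell into a high and a low pair, CD1d-KO 1 and 2 with WT 1 and 4 above the other 4. The log2 fold change was 0.10 ± 0.12 (-0.14 to 0.33, adjusted p = 0.806), and -0.09 without the Y-linked samples. Cdca7 (chromosome 2, 72476219 to 72486890, plus strand), a nuclear protein tied to cell division, had 6707, 6784, 6971 and 5781 in CD1d-KO against 7188, 5697, 5424 and 6356 in WT. CD1d-KO samples 1 to 3 lay close together and WT 1 was the highest sample. Its log2 fold change was 0.09 ± 0.10 (-0.10 to 0.28, adjusted p = 0.764), and 0.05 without the Y-linked samples.

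Of the secreted products, Olfm4 (chromosome 14, 80000302 to 80023141, plus strand), a glycoprotein whose transcript in the small intestine requires NOTCH signalling, was measured at 206041, 195451, 155878 and 139596 normalised counts in CD1d-KO and 182201, 142413, 127311 and 153851 in WT. The Y-linked CD1d-KO samples were the highest, WT 1 came next, and CD1d-KO 4 lay below WT 1, WT 2 and WT 4. The means were 174200 ± 31620 and 151400 ± 23210, a log2 fold change of 0.20 ± 0.13 (-0.06 to 0.46, adjusted p = 0.509). Without the Y-linked samples it was -0.03 (-0.27 to 0.20). Smoc2 (chromosome 17, 14279506 to 14404790, plus strand), a matricellular protein, had 6544, 6288, 6009 and 5218 in CD1d-KO against 6135, 4981, 4947 and 5648 in WT. CD1d-KO 4 and WT 1 crossed the order of the genotypes. Its log2 fold change was 0.15 ± 0.09 (-0.04 to 0.33, adjusted p = 0.488), and 0.05 without the Y-linked samples.

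The transport proteins had the largest positive fold changes. Slc12a2 (chromosome 18, 57878678 to 57946821, plus strand), the sodium-potassium-chloride cotransporter of the basolateral membrane, was measured at 43678, 42407, 28656 and 31255 normalised counts in CD1d-KO and 32628, 27982, 27057 and 31334 in WT. CD1d-KO 1 and 2 lay above every other sample, whereas CD1d-KO 3 and 4 lay inside the WT range. The means of 36500 ± 7648 and 29750 ± 2656 gave a log2 fold change of 0.29 ± 0.13 (0.04 to 0.55) with an unadjusted p of 0.0226, an adjusted p of 0.218 and an exact permutation p of 0.200. Leaving out CD1d-KO 3 alone brought Slc12a2 past the threshold (log2 fold change 0.39, adjusted p = 0.0214, DESeq2). Without the Y-linked samples the value was 0.01 (-0.17 to 0.20).

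Aqp4 (chromosome 18, 15389394 to 15410982, minus strand), a water channel, had 3523, 3393, 2782 and 2726 normalised counts in CD1d-KO and 2784, 2539, 2424 and 2795 in WT. All 4 CD1d-KO samples exceeded the WT mean of 2636 ± 184, yet CD1d-KO 3 and 4 stayed below the highest WT samples. The log2 fold change was 0.24 ± 0.10 (0.04 to 0.43) with an unadjusted p of 0.0163, an adjusted p of 0.181 and an exact permutation p of 0.171, and was 0.06 (-0.12 to 0.25) without the Y-linked samples. The stomach's parietal cells also express Aqp4, and of the subunits of their proton pump Atp4b was at 0 to 1.2 normalised counts. Atp4a was higher in CD1d-KO, at 46.5, 43.8, 51.8 and 34.6 beside 18.7, 22.0, 21.3 and 31.8 in WT (log2 fold change 0.93, adjusted p = 0.0477, DESeq2), without overlap but by a narrow margin. It was not called without the Y-linked samples (0.89, adjusted p = 0.431), and its part in the Aqp4 values was not tested. For the other 7 markers the exact permutation p ran from 0.200 to 0.971, and the smallest that 4 against 4 samples allow is 0.0286.

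**Figure D2:**
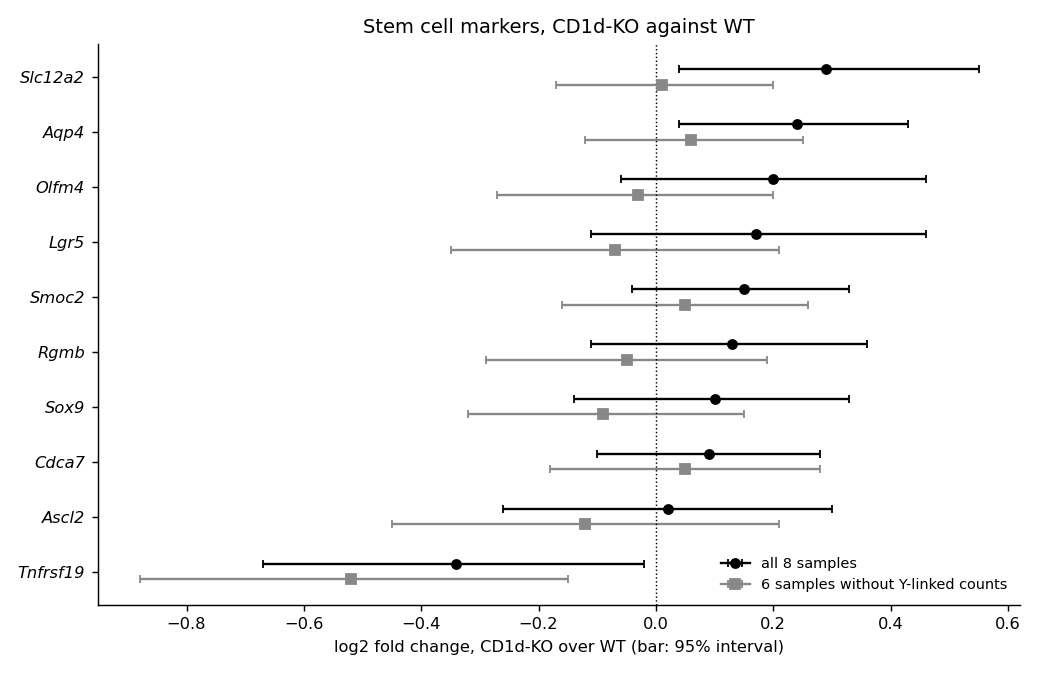
Log2 fold change of each marker, CD1d-KO over WT, with its 95% interval, over all 8 samples (black) and over the 6 samples without Y-linked counts (grey). With all samples 9 of 10 values lie above 0; without the Y-linked samples 5 of those 9 lie below it, and Tnfrsf19 is at -0.52.

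The markers shared much of their pattern over the mice. On the log2 scale, with each gene centred on its mean over the 8 samples, all 10 markers were above their mean in CD1d-KO 1, 9 in CD1d-KO 2 and 9 in WT 1. In contrast, 3 were above it in CD1d-KO 3, 0 in CD1d-KO 4, 0 in WT 2, 2 in WT 3 and 3 in WT 4. Averaged over the markers, CD1d-KO samples 1 to 4 stood at 0.24, 0.19, -0.04 and -0.19, beside 0.17, -0.19, -0.18 and 0.00 in WT samples 1 to 4.

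**Figure D3:**
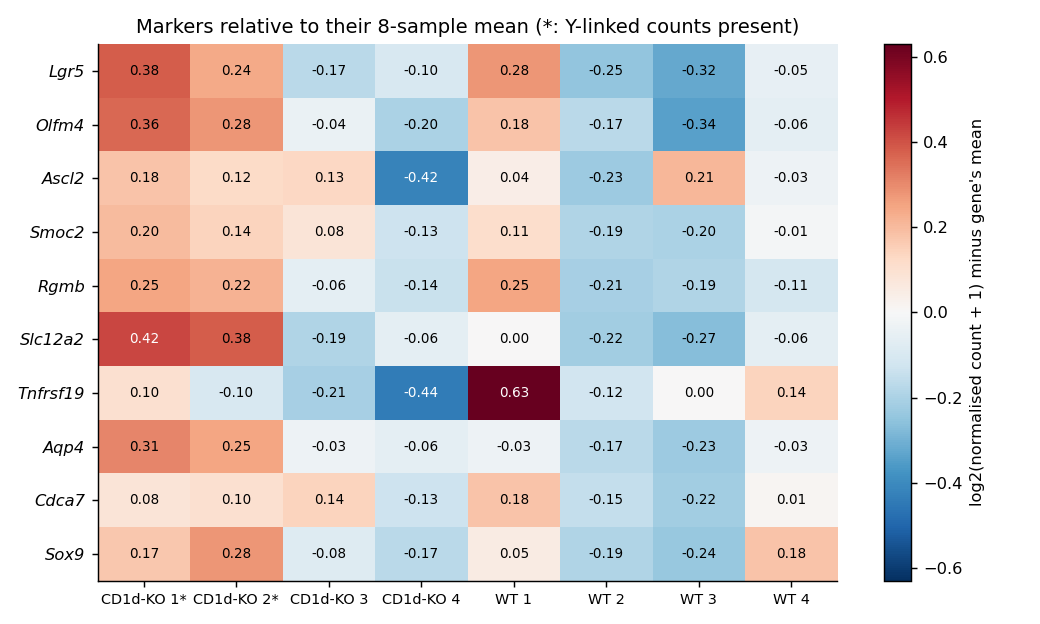
Log2(normalised count + 1) of each marker minus its mean over the 8 samples; red is above the mean and blue below, and asterisks mark the samples with Y-linked counts. The columns of CD1d-KO 1, CD1d-KO 2 and WT 1 are mostly red, and those of CD1d-KO 4 and WT 2 are blue throughout.

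Within CD1d-KO, the ratio of the Y-linked samples' mean to that of the other samples was above 1 for 10 of 10 markers, from 1.06 for Cdca7 to 1.44 for Slc12a2 with a median of 1.26, while 48.6% of all genes lay above 1. Within WT, WT 1 exceeded the mean of the other WT samples for 10 of 10 markers, from 1.03-fold for Ascl2 to 1.54-fold for Tnfrsf19 with a median of 1.21, while 48.8% of all genes did. WT 1 was singled out by its high marker values, so its ratios describe that choice and are no separate result. The CD1d-KO samples without Y-linked counts, set against WT, gave ratios above 1 for 4 of 10 markers, from 0.699 for Tnfrsf19 to 1.04 for Aqp4 with a median of 0.971. Of all genes, 50.2% lay above 1 in that comparison.

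Summed levels of genes of other epithelial cells also varied over the same mice. Over the 10 markers CD1d-KO samples 1 to 4 summed to 281289, 268898, 212020 and 195709 normalised counts, beside 245404, 194408, 178031 and 212503 in WT samples 1 to 4. The 10 villus enterocyte genes summed to 166111, 219756, 267339 and 262114 in CD1d-KO against 177801, 220018, 228834 and 183621 in WT. The lowest 2 sums were in CD1d-KO 1 and WT 1, which had high marker sums. CD1d-KO 2 also had a high marker sum, but its enterocyte sum was close to that of WT 2, whose marker sum was low. The Paneth and niche ligand genes summed to 53218, 34316, 57004 and 67297 in CD1d-KO against 38019, 40265, 36048 and 30602 in WT. Sums of 5 genes of epithelial identity stayed between 230291 and 252545. The part of these differences in the marker values was not tested, and in bulk samples fewer cells of a type and less RNA per cell cannot be told apart.

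**Figure D4:**
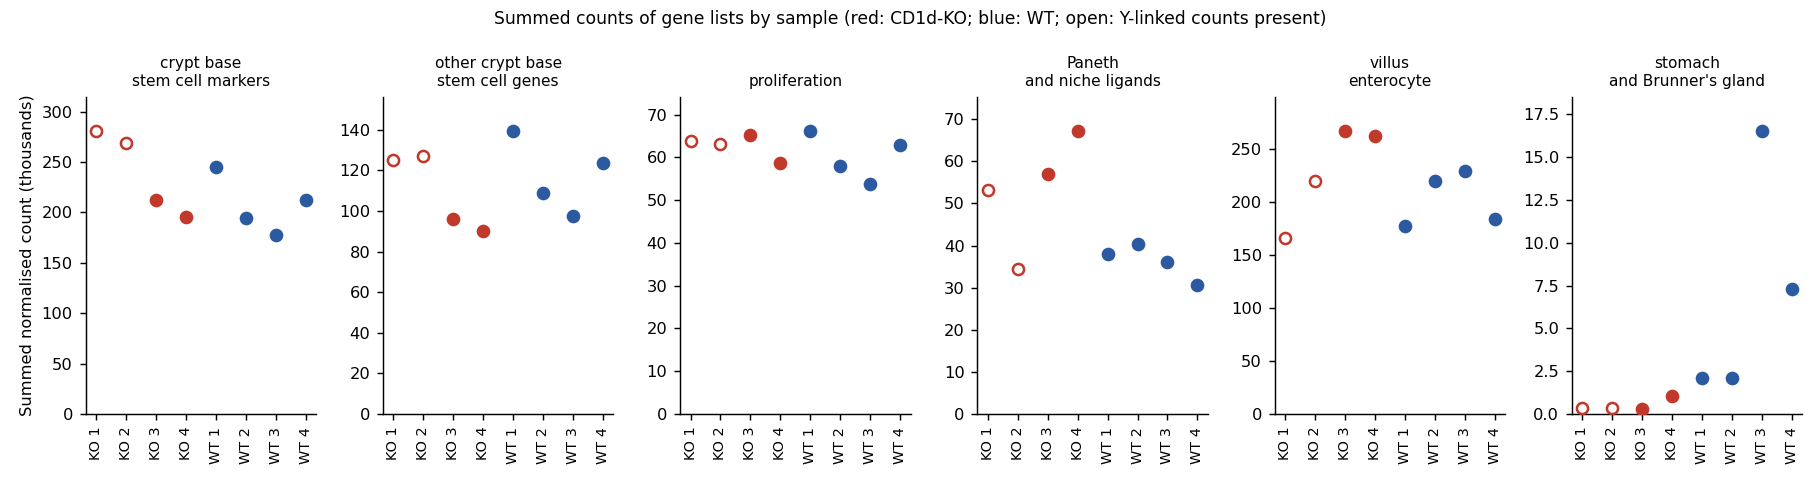
Summed normalised counts (axes from 0, in the units printed on them) of 6 gene lists in each CD1d-KO (KO, red) and WT (blue) sample; open symbols mark samples with Y-linked counts. The marker sums are mostly Olfm4. They are highest in CD1d-KO 1 and 2, the villus enterocyte sums in CD1d-KO 3 and 4, and the stomach and Brunner's gland sums in WT 3 and WT 4.

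Leukocyte genes lower in CD1d-KO included Itgam, Cd3g, Cd8a and Jchain, the joining chain of secreted immunoglobulin. The list summed to 787 to 941 in CD1d-KO and 1002 to 1962 in WT, most of it Itgam. Without the Y-linked samples Itgam was still called (adjusted p = 0.0129) and Cd3g, Cd8a and Jchain were not (adjusted p 0.164 to 0.319). Log2 fold changes of Cd3g, Cd8a and Jchain were -2.8, -2.02 and -4.07 there, beside -2.46, -2.58 and -4.47 with all samples. Of 11 tested stomach and Brunner's gland genes, 6 were lower and 1 (Atp4a) was higher, where 2.38% and 1.65% of all tested genes were. None of these 7 was called without the Y-linked samples (adjusted p 0.0551 to 0.431), a fit with only 2 CD1d-KO samples. All 7 kept their direction there. The 6 lower genes ran from -6.42 for Muc5ac to -1.82 for Muc6, beside -7.42 and -1.7 with all samples. Both sums were higher in every WT sample than in any CD1d-KO sample. Without WT 3 and WT 4, which had the highest stomach sums, the log2 fold changes of the markers were 0.07 for Lgr5, 0.10 for Olfm4, 0.11 for Ascl2, 0.11 for Smoc2, 0.04 for Rgmb, 0.27 for Slc12a2, -0.45 for Tnfrsf19, 0.22 for Aqp4, 0.03 for Cdca7 and 0.12 for Sox9, and none was called. The part of the leukocyte genes in the marker values was not tested.

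Other genes of the crypt were examined beside the markers. Of 18 other crypt base genes, 1 was upregulated and 0 downregulated (1.65% and 2.38% over all tested genes), with a median log2 fold change of 0.07. The upregulated gene was Nrn1, a membrane-anchored protein known from neurons, at 552.5, 560.0, 630.5 and 655.7 normalised counts in CD1d-KO and 439.8, 445.4, 497.3 and 491.5 in WT. Its genotypes did not overlap, and CD1d-KO 3 and 4, low for most markers, were its highest samples. The log2 fold change was 0.36 ± 0.10 (adjusted p = 0.0107, DESeq2) and 0.46 (adjusted p = 0.0138) without the Y-linked samples. The call was lost without CD1d-KO 4 (0.31, adjusted p = 0.0687), WT 1 (0.33, 0.0778) or WT 2 (0.33, 0.0933), and with edgeR (0.35, 0.0739). Igfbp4, an IGF-binding protein, had the next highest test statistic at 0.22 (adjusted p = 0.461). The lowest statistics were those of Slc14a1, a urea transporter, at -0.13 (adjusted p = 0.621) and of Clca3b at -0.19 (adjusted p = 0.762). Among the alternatives, Clca3b passed the threshold without the Y-linked samples and with Y-linked counts as a covariate, where it was lower in CD1d-KO (-0.47, adjusted p = 0.0242 in the former).

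In the WNT and R-spondin pathway, 0 of 20 genes passed the test, and the median log2 fold change was 0.06. An unadjusted p under 0.05 was found for 3 of the 20, close to the 15.3% of all tested genes. The highest statistics were those of Apcdd1, a WNT inhibitor, at 0.56 (adjusted p = 0.158), and of Fzd5, a WNT receptor, at 0.17 (adjusted p = 0.160). The lowest were those of Nkd1, a feedback inhibitor of WNT, at -0.45 (adjusted p = 0.341), and of the cyclin Ccnd1 at -0.14 (adjusted p = 0.518). Axin2, the usual readout of WNT signalling, had 8743, 8459, 6591 and 6479 normalised counts in CD1d-KO and 8555, 6886, 6235 and 6960 in WT. Like Lgr5 it was high in CD1d-KO 1, CD1d-KO 2 and WT 1 and overlapped between the genotypes (log2 fold change 0.08, adjusted p = 0.852). Lgr4, a close relative of Lgr5 that also binds R-spondins, had 7698, 8087, 7865 and 7916 in CD1d-KO against 7265, 7595, 6961 and 7207 in WT. Its genotypes did not overlap, by a narrow margin, and it missed the threshold (0.12 ± 0.05, adjusted p = 0.168). Axin2 and Lgr4 were picked after their values were seen.

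Of 4 reserve stem cell genes none passed the test, nor an unadjusted p under 0.05, with values from -0.16 for Tert, the telomerase subunit, to 0.12 for Hopx and Bmi1. Of 12 proliferation genes none passed either threshold, and 10 had a log2 fold change above 0, as 50.3% of all tested genes did. Mcm6, part of the replicative helicase, was at 0.17 (adjusted p = 0.332), Pcna, the polymerase clamp, at 0.11 (0.506), Ccnb1 at -0.02 (0.971) and Mki67 at -0.01 (0.989). Summed counts of the proliferation genes ranged from 53743 in WT 3 to 66285 in WT 1.

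Of the 10 Paneth and niche ligand genes, 1 was upregulated, as 1.65% of all tested genes were. Lyz1, the Paneth cell lysozyme, had 31600, 19470, 35830 and 40400 normalised counts in CD1d-KO and 20470, 21810, 19130 and 15240 in WT. CD1d-KO 2 lay within the WT range and the other CD1d-KO samples above it. The log2 fold change was 0.73 ± 0.23 (adjusted p = 0.0416, DESeq2). It was 0.99 (adjusted p = 5.90e-13) without the Y-linked samples, a fit with only 2 CD1d-KO samples. With Y-linked counts as a covariate it was also 0.99, at an adjusted p of 0.00331 (DESeq2). The call was lost on leaving out any single sample other than CD1d-KO 2 (log2 fold change 0.60 to 0.80, adjusted p 0.0819 to 0.162), with edgeR (adjusted p = 0.0858), without independent filtering (0.0514), with the replicate block (0.415) and without WT 3 and WT 4 (0.453). Lyz1 shares sequence with its neighbour Lyz2, so reads could be split between them, and Lyz2 had 10.5 to 28.6 normalised counts. The defensin Defa24 was at 0.74 (adjusted p = 0.0605), while Mmp7, which processes defensins, was at -0.27 (0.517) and the NOTCH ligand Dll4 at -0.25 (0.410). None of 10 villus enterocyte genes was called (median 0.19), and 2 had an unadjusted p under 0.05, as 15.3% of all tested genes did. Fabp2, a fatty acid-binding protein, was at 0.46 (adjusted p = 0.387) and passed without the Y-linked samples (0.81, adjusted p = 7.82e-12) and with Y-linked counts as a covariate. Itln1 of the Paneth list, at 0.51 (adjusted p = 0.165), did likewise (0.73 and adjusted p = 1.30e-07 without the Y-linked samples). The values of Fabp2 and Itln1 without the Y-linked samples also rest on only 2 CD1d-KO samples. The highest statistics of the enterocyte genes were those of Sis, the sucrase-isomaltase, at 0.22 (0.304) and Apoa1 at 0.45 (0.366), and the lowest those of Ada at -0.27 (0.300) and Anpep at -0.01 (0.990).

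**Figure D5:**
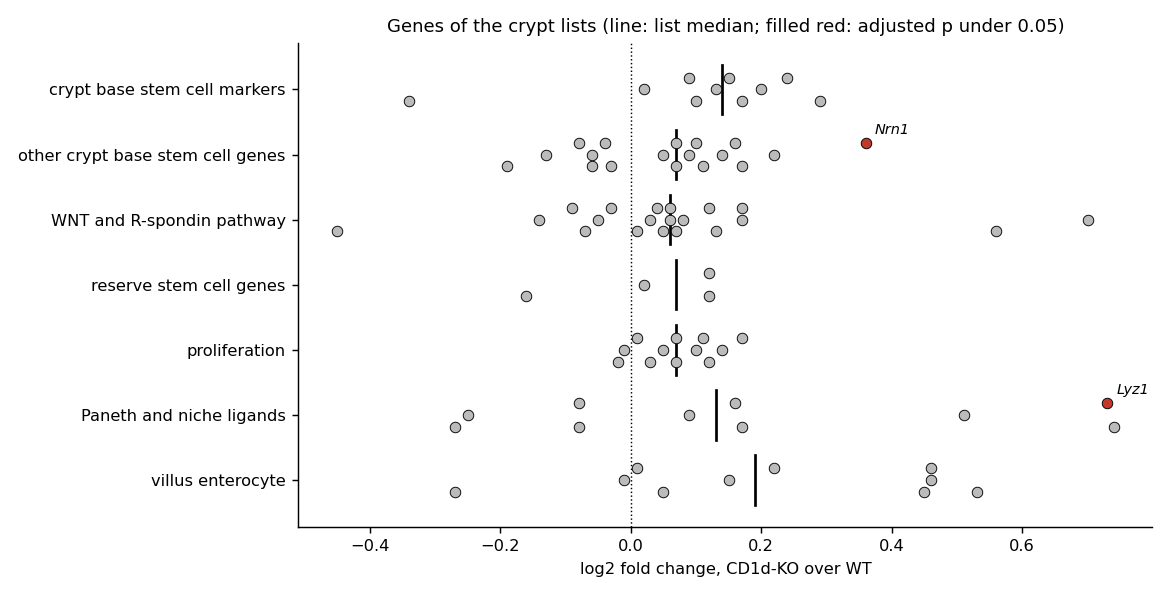
Log2 fold change, CD1d-KO over WT, of every tested gene in 7 lists; each point is a gene and the line the list's median, and red points have an adjusted p under 0.05. Nrn1 and Lyz1 are the 2 red points, and none of the 10 markers is red.

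The genes closest to Lgr5 over the 8 samples, by the root-mean-square difference of centred log2 values among 11720 genes with a mean of at least 50, were Atoh8 (0.057), Olfm4 (0.074), Pnpla7 (0.079), Prelp (0.080) and Xndc1 (0.081). Among the markers, Rgmb ranked 6, Slc12a2 41, Aqp4 95, Smoc2 125, Sox9 189 and Cdca7 497, whereas Ascl2 and Tnfrsf19 ranked 5432 and 5619. Ascl2 and Tnfrsf19 are also the 2 least abundant markers. Closest to the mean profile of the markers were Cd44 (0.051), Abcc1 (0.052), Lrig1 (0.059), Kcnq1 (0.060) and Igf1r (0.060), of which Cd44, Kcnq1 and Lrig1 belong to the crypt lists above. These likenesses rest on 8 libraries and follow the differences between mice described above, and they are given as a description without a test.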

How the data were processed

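IECs were sorted from proximal small intestinal crypts of 4 CD1d-KO and 4 WT mice, and poly(A) libraries were made with the KAPA mRNA HyperPrep kit. The authors aligned reads with HISAT2 (GRCm39 per the labels) and deposited raw counts per gene from featureCounts 1.6.4, counted without strand over exons. The header of the deposited table names an mm10 RefSeq annotation, so coordinates are printed as the table gives them and were not converted. Overlapping and antisense genes cannot be told apart in such counts. All 8 columns were used and 0 were left out.

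Samples were grouped by the genotype in their labels. Counts were fitted across all genes with DESeq2 1.42.0 in R 4.3.3 (median-of-ratios size factors, genotype as the only term, Wald test, Benjamini-Hochberg adjusted p under 0.05). Of 25239 genes, 19088 had a count and 15446 were tested, after independent filtering at a mean of 2.41. 622 were called, 255 higher and 367 lower in CD1d-KO. Intervals are 95%. Exact permutation tests were two-sided, on log2(normalised count + 1). p-values set the difference between the genotypes against the spread within them. That spread lies between these mice and can also hold the 2 experiments and, in CD1d-KO, the Y-linked samples. The markers, lists and tests were chosen with earlier results of these data known. Named were all markers, and in the 6 crypt and villus lists every called gene and the pair with the highest and lowest test statistics in each. Within the leukocyte and stomach lists, called genes are given by count, with examples picked after their values were seen. Promoter starts in RefSeq equal the table's gene starts for the 5 markers, except at inner starts. Alternatives were edgeR 4.0.16, other size factors, other filters, replicate block, samples without Y-linked counts (fewer than 10), Y-linked counts as a covariate, leaving out each sample and, chosen after seeing the data, leaving out the samples above 5000 summed stomach counts. The fit was tested on simulated data.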

Additional observations from a re-analysis of the deposited data

Results flagged for a closer look

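Of 42 groups of 4 samples checked, 2 had a sample that stood apart from the other 3 by more than Dixon's 95% critical value allows, and chance gives about 1 in 20. Ascl2 had 397 normalised counts in CD1d-KO 4, where the other CD1d-KO samples had 577, 584 and 603 (gap over range 0.876). Without CD1d-KO 4 the log2 fold change of Ascl2 was 0.14 in place of 0.02. The stomach and Brunner's gland genes summed to 1058 normalised counts in CD1d-KO 4, where the others had 309, 350 and 357 (gap over range 0.936). Every WT sample had more, from 2071 to 16550.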

How the results depend on the processing

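All 10 markers were recomputed under 18 alternatives, 180 values in all, of which 165 kept their direction and their side of the threshold, 14 turned sign and 1 (Slc12a2 without CD1d-KO 3, 0.39) passed it. Without the Y-linked samples the log2 fold change was -0.07 for Lgr5, -0.03 for Olfm4, -0.12 for Ascl2, -0.05 for Rgmb and -0.09 for Sox9. With Y-linked counts as a covariate these were -0.07, -0.04, -0.12, -0.05 and -0.09. Leaving out single samples, Ascl2 ran from -0.05 to 0.14 (-0.04, -0.01 and -0.02 without CD1d-KO 1, 2 and 3 and -0.05 without WT 2). Over the same fits Lgr5 ran from 0.07 (without CD1d-KO 1) to 0.31 (without WT 1, interval 0.05 to 0.56). Olfm4 (0.11 to 0.30) and Rgmb (0.07 to 0.24) had their lowest and highest value without the same samples. Smoc2 ran from 0.11 (without CD1d-KO 1, WT 2 or WT 3) to 0.21 (without CD1d-KO 4 or WT 1). Cdca7 ran from 0.03 (WT 3) to 0.17 (WT 1) and Sox9 from 0.02 (CD1d-KO 2) to 0.18 (WT 4). Slc12a2 ran from 0.20 (CD1d-KO 1) to 0.39 (CD1d-KO 3). Aqp4 ran from 0.17 (CD1d-KO 1) to 0.29 (CD1d-KO 3 or CD1d-KO 4), and Tnfrsf19 from -0.44 (CD1d-KO 1) to -0.16 (WT 1). The number of markers called was 0 under every alternative but leaving out single samples, where it was 0 to 1. Over all genes 622 were called, and 228 with edgeR (224 shared), 372 without the Y-linked samples, 331 without WT 3 and WT 4 (an alternative chosen after seeing the data) and 323 (without CD1d-KO 2) to 646 on leaving out single samples. Without WT 1 it was 406 and without WT 2 385. The 6 crypt and villus lists beside the markers (other crypt base, WNT, reserve, proliferation, Paneth, enterocyte) held 2 called genes (Nrn1 and Lyz1), and 0 with edgeR, 1 without independent filtering (Nrn1), 5 without the Y-linked samples and 5 with the covariate (Nrn1, Lyz1, Itln1 and Fabp2 higher, Clca3b lower), 1 without WT 3 and WT 4 (Nrn1) and 0 to 4 on leaving out single samples. The causes were not tested. Replicate numbers did not clearly pair the samples: same-numbered deviations correlated at 0.285, 0.025, 0.221 and 0.004 over 11721 genes. Samples 1 and 3 correlated best with their own number and samples 2 and 4 with another, so these values cannot settle whether samples were paired. With a replicate block 569 genes were called (434 shared), 0 markers and 2 genes of those lists (Nrn1 and Sis). The block narrowed the SE of Lgr5 from 0.15 to 0.09 and of Olfm4 from 0.13 to 0.08 (interval 0.04 to 0.36). It widened that of Slc12a2 from 0.13 to 0.16. Counting error at the lowest marker count was 4.92% or less, so the spread between 4 mice sets the width of the intervals.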
